A study of Mus musculus with 11 samples.

Results

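The axonemal dynein intermediate and light chains described here are 9 genes, chosen by name as the rows of the count table whose Ensembl identifiers carry the GENCODE symbols Dnaic1, Dnaic2, Wdr63, Wdr78, Nme8, Dnali1, Dnal1, Dnal4 and Dynlrb2. All 9 had a row among the 23074 genes of the table, and all 9 passed the filter on low counts that left 15745 genes for testing. RNA of whole decapsulated testes was sequenced from 5 wild type and 6 Rfx2-/- mice, all at postnatal day 21 (P21), and reads were counted over the exons of each gene. The Rfx2-/- mice lack exon 7 of Rfx2, a gene for a transcription factor of meiotic and early haploid germ cells. The exon was flanked by loxP sites in embryonic stem cells and then deleted in every tissue by crossing to mice with Cre under an actin promoter, so the deletion is not limited to germ cells. The study's methods describe a line of mixed background, made with C57BL/6, 129/Sv and FVB/N stock, and a second line backcrossed to C57BL/6. They do not say which line gave the mice sequenced here. No treatment was given, and wild type mice are numbered 1 to 5 and Rfx2-/- mice 6 to 11 in what follows. By the study's methods mice were matched for age and taken from the same litters where this could be done, but the labels tie no mouse to a litter.

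Axonemal dyneins are the motors that bend cilia and sperm flagella. Their heavy chains hydrolyse ATP, and small light chains are bound to the intermediate or heavy chains. In the outer arm and the double-headed inner arm, a pair of WD-repeat intermediate chains lies at the base. DNAIC1 and DNAIC2 are the intermediate chains of the outer dynein arm, and mutations in either cause primary ciliary dyskinesia in humans. WDR63 and WDR78 are the intermediate chains of the double-headed inner arm, dynein f. NME8 is a thioredoxin and nucleoside diphosphate kinase domain protein of the outer arm, related to an intermediate chain of sea urchin sperm. DNALI1 is a light chain of the single-headed inner arms, DNAL1 binds the motor domain of an outer arm heavy chain, DNAL4 is a light chain of the LC8 family, and DYNLRB2 is a roadblock light chain. In the testis these proteins go into the sperm tail, and several of their genes are already transcribed in meiotic spermatocytes. Genes for ciliary proteins often carry an X-box, the inverted repeat bound by RFX factors, near their start.

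Promoter windows were given for 8 of the 9 genes, each from 250 bases before to 50 bases after the RefSeq start (build GRCm38.p6). Those of 4 genes are printed here: Dnaic2, which had the lowest Rfx2-/- level relative to wild type, Dynlrb2, which shares a motif with it, and Dnaic1 and Wdr63, the partner genes in the same arms as Dnaic2 and Wdr78, which were higher in Rfx2-/- testes. They are written 5′ to 3′ on the strand of the gene. Capitals mark the letters GTTGC or their reverse complement GCAAC, and, where both fall 3 letters apart, the whole 13-letter repeat GTTGCNNNGCAAC.
Dnaic2 promoter, chr11:114727169-114727468 (plus strand): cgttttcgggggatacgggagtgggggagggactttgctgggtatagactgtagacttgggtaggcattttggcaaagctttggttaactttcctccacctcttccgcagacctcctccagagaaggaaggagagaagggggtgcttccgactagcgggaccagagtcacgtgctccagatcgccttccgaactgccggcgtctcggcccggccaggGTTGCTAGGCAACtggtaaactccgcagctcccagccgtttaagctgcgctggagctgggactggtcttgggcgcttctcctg
Dynlrb2 promoter, chr8:116504765-116505064 (plus strand): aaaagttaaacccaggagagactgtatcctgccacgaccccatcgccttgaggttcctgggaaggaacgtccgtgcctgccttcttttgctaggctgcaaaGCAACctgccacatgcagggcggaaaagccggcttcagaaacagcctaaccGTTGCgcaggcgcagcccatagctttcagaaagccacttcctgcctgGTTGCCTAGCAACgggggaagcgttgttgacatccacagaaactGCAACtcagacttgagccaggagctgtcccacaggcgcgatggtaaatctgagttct
Dnaic1 promoter, chr4:41569544-41569843 (plus strand): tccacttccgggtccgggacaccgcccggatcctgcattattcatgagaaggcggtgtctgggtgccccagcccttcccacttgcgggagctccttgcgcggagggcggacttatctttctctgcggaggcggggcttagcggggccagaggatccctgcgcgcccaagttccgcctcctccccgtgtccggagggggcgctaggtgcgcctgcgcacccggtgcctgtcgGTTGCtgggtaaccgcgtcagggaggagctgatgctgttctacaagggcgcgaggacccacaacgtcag
Wdr63 promoter, chr3:146107987-146108286 (minus strand): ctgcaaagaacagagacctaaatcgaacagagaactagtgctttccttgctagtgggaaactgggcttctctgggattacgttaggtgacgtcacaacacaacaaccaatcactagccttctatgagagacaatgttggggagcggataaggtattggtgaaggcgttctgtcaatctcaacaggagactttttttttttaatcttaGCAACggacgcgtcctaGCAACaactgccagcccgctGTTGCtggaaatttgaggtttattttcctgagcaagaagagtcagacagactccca

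One fixed 14-letter form of the X-box was searched, GTNNCC and GGNNAC with any 2 letters between them, which reads the same on both strands. It was in 0 of the 8 windows and in 618 of all 32851 windows (1.88%). Apart from the motifs below, looser forms of the X-box were not searched. A window without this form can therefore still hold an X-box. The shorter motif GTTGCC, searched on both strands, was in the windows of Dnaic2 and Dynlrb2 and in 12.5% of all windows. The 13-letter repeat was added after the sequences had been seen. It stood in the same 2 windows, starting 33 bases before the start of Dnaic2 and 51 bases before that of Dynlrb2, and in 74 windows overall (0.225%). The letters GTTGC on either strand, which the longer motifs can contain, were found in 7 of the 8 windows and in 35.2% of all windows, and the window of Dnali1 lacked them. Dnaic2 and Dynlrb2, the pair with the repeat, had log2 fold changes of -5.91 and -0.33 between genotypes. A match of letters is a description of the window and no evidence of binding.

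Before the chain genes, the targeted gene was examined. Rfx2 had 472, 380, 218, 368 and 191 CPM (counts scaled to library size) in wild type mice 1 to 5, and between 282 and 324 CPM, with a median of 303 CPM, in the Rfx2-/- mice. The genotypes overlapped, and the log2 fold change was -0.10 with a standard error (SE) of 0.21. Without wild type mouse 1 it was 0.07. These counts cover all exons, so they do not check the deletion of exon 7. Total counts lay between 26925157 and 29769483 in wild type and between 22232097 and 27116903 in Rfx2-/- libraries (exact two-sided permutation test, p = 0.013). At these depths 3 counts, the floor used here, correspond to between 0.0852 and 0.139 CPM, which covers counting error only.

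Germ cell markers differed among the mice. Wild type mice 3 and 5 had the lowest wild type levels of all 9 chain genes, of Rfx2, and of pachytene spermatocyte and round spermatid markers. They had the highest wild type scores for early meiotic markers (6.47 and 6.52, against 5.54 to 6.24 in the other 3) and spermatogonial markers (5.49 and 5.59, against 4.82 to 5.03). In summed CPM of the early meiotic markers, however, wild type mouse 4 was highest at 472, above mouse 5 at 443 and mouse 3 at 414. The pachytene score, the mean log2 CPM of Piwil1, Mybl1, Hspa2, Ccna1 and Pou5f2, was 8.32, 8.16, 7.25, 8.32 and 7.03 in wild type mice 1 to 5 and between 8.45 and 8.63 in Rfx2-/- mice, so that every Rfx2-/- mouse stood above every wild type mouse. The difference was 0.74 (exact two-sided permutation test, p = 0.00433, the smallest this design can give, and 0.0433 after adjustment over 10 marker lists). The summed level of all 5 markers ran from 1811 to 3438 CPM in wild type and from 3267 to 3880 CPM in Rfx2-/- mice, so the sums overlapped where the scores did not. The round spermatid score over 9 markers ran from -0.43 to 4.78 in wild type and from 1.67 to 5.15 in Rfx2-/- mice (exact two-sided permutation test, p = 0.251, adjusted 0.418), with sums of 68.2 to 574 CPM and of 303 to 852 CPM. After adjustment, none of the other 8 lists passed 0.05 by the same exact permutation test, of which Sertoli cell markers came nearest (difference -0.36, adjusted p = 0.0866). In whole testis, fewer cells of a type and less RNA per cell cannot be told apart. For this reason each gene is also given without wild type mice 3 and 5, and with the pachytene or the round spermatid score as a covariate. Wild type mouse 4 was kept, though its round spermatid score of 1.28 also lay below every Rfx2-/- mouse. Its elongating spermatid score (-0.06) was below that of mouse 3 (0.05). Sums of the elongating spermatid markers ran from 2.86 to 501 CPM in wild type and from 11.9 to 522 CPM in Rfx2-/- mice. Because mice 3 and 5 were the lowest wild type mice for all 9 chain genes, leaving them out moves every fold change down by the choice of mice. The pachytene score separates the genotypes completely, so with it as a covariate the fold change rests partly on extrapolation; Rfx2 itself had a log2 fold change of -0.67 in that fit (adjusted p = 0.000176). Genes listed as markers of multiciliated epithelium, a tissue of efferent ducts, were at 0 to 9 reads for Mcidas, 0 to 6 for Gmnc and 0 to 4 for Sntn in every library. The list's other genes, Foxj1 and Deup1, which were the 2 of 5 that passed the filter, reached 79.6 and 96.5 CPM, and the list's sum was 11.9 to 176 CPM in wild type and 20.6 to 164 CPM in Rfx2-/- mice.

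With edgeR's quasi-likelihood test and a limit of 0.01 on the adjusted p (Benjamini-Hochberg, over all tested genes), 1 of the 9 genes fell in Rfx2-/- testes, against 1.94% of all tested genes, and 0 of 9 rose, against 0.73%. The gene that fell was Dnaic2, by more than 2-fold, as 1.04% of all tested genes did. At an unadjusted p under 0.05 or under 0.01, or an adjusted p of at most 0.05, 2 genes were lower (Dnaic2 and Dnali1) and 2 were higher (Dnaic1 and Wdr63). The shares of all tested genes were 8.78% lower and 6.15% higher at the adjusted limit of 0.05, 10.2% and 7.49% at an unadjusted 0.01, and 23.7% and 18.1% at an unadjusted 0.05, so at the last limit 2 of 9 in each direction is near the background. DESeq2 and limma voom each called the same 2 lower and 2 higher at an adjusted p of at most 0.01, where DESeq2 called 5.91% of tested genes lower and 7.44% higher, and voom 4.33% and 2.33%. The values of the genotypes did not overlap for Dnaic2, lower in all Rfx2-/- mice (5.2% of tested genes), and for Dnaic1 and Wdr63, higher in all of them (6.5%). The median log2 fold change of the 9 genes was -0.16, beside -0.05 over all tested genes. The latter was -0.22 with total counts as library sizes.

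**Figure D1:**
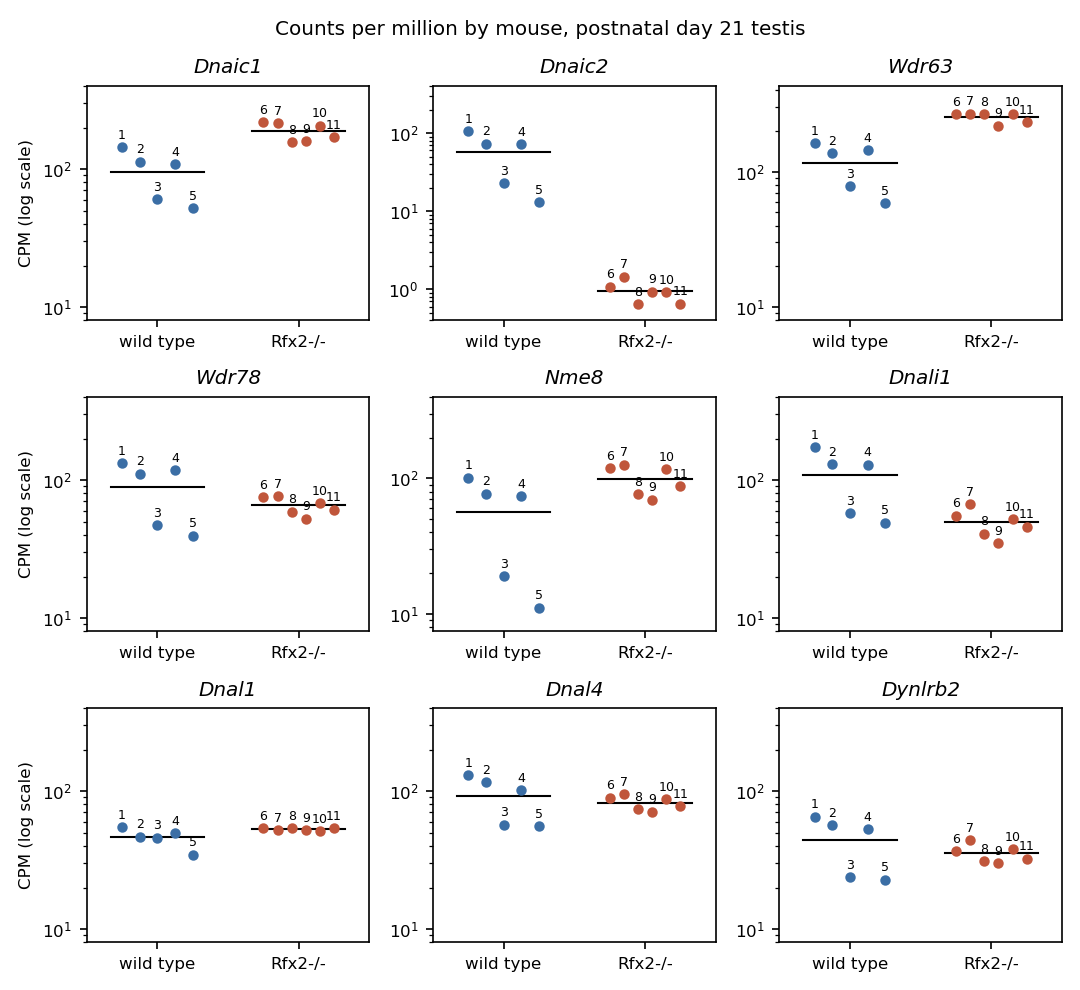
CPM (log axis, with its own range for Dnaic2) of the 9 chain genes in each wild type (blue) and Rfx2-/- (red) mouse, with the mouse number above each point and the genotype mean as a line. Dnaic2 lies at 0.647 to 1.44 CPM in Rfx2-/- mice, Dnaic1 and Wdr63 lie above all wild type mice, and wild type mice 3 and 5 are the lowest wild type mice in every panel.

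Dnaic2 (ENSMUSG00000034706, chromosome 11 from 114727408 to 114757889 on the plus strand of GRCm38) encodes an outer arm intermediate chain. It had 105, 73.1, 23.0, 72.7 and 13.1 CPM in wild type mice 1 to 5, from 416 to 2983 reads. In the Rfx2-/- mice it had 1.08, 1.44, 0.647, 0.934, 0.913 and 0.653 CPM in mice 6 to 11, from 14 to 35 reads. The lowest wild type mouse was still well above the highest Rfx2-/- mouse. Wild type testes averaged 57.4 ± 38.4 CPM (SD, n = 5), and Rfx2-/- testes averaged 0.945 ± 0.297 CPM (SD, n = 6), which is 1.65% of wild type. Dnaic2 fell by 5.91 on the log2 scale (SE 0.56, 95% interval -7.14 to -4.69, adjusted p = 0.000148), and 13 of all tested genes had a lower fold change. It was called lower in 21 of 21 alternative fits, between -7.05 and -5.58 on the log2 scale. The wild type mice with the lowest pachytene scores, 5 and 3, had 13.1 and 23.0 CPM of Dnaic2. Pachytene scores, though not the summed CPM of those markers, were higher in all Rfx2-/- mice than in any wild type mouse. The part of these markers in the difference of Dnaic2 was not tested beyond the covariate fits.

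The genes with the profile most like that of Dnaic2 over the 11 mice were sought among all tested genes, by the mean absolute difference of centred log2 CPM. They were 1700017D01Rik, with a mean difference of 0.279, Aldh3b2, with 0.355, and Ccdc110, with 0.360. Wild type mice had 63.7 ± 35.7 CPM of 1700017D01Rik (SD, n = 5), and Rfx2-/- mice had 0.828 ± 0.109 CPM (SD, n = 6). Ccdc110 had 64.4 ± 40.3 CPM in wild type (SD, n = 5), against 0.785 ± 0.250 CPM (SD, n = 6). Aldh3b2, an aldehyde dehydrogenase family gene, had 6.83 ± 5.32 CPM in wild type (SD, n = 5) and at most 3 reads in each of the 6 Rfx2-/- mice. This likeness includes the difference between genotypes, and in wild type mice alone the chain gene most like Dnaic2 was Nme8, at a mean difference of 0.133.

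Dnaic1 (ENSMUSG00000061322, chromosome 4 from 41569775 to 41638158, plus strand) encodes the other intermediate chain of the outer arm. It had 144, 113, 60.4, 108 and 51.9 CPM in wild type mice 1 to 5 and between 157 and 220 CPM, with a median of 188 CPM, in Rfx2-/- mice. All Rfx2-/- mice were above all wild type mice, with means of 188 ± 29.0 CPM (SD, n = 6) and 95.6 ± 38.7 CPM (SD, n = 5). The log2 fold change was 0.98 (SE 0.25, 95% interval 0.43 to 1.52, adjusted p = 0.0309), past 0.05 but not 0.01. With single mice left out, the adjusted p of Dnaic1 in edgeR ran from 0.0116 to 0.0698, so it did not stay under 0.05. Dnaic1 passed 0.01 with DESeq2 (adjusted p = 0.00103), limma voom (0.0058) and the round spermatid covariate (0.00257). Without wild type mice 3 and 5 it was 0.63 (adjusted p = 0.024), and with the pachytene covariate 0.32 (adjusted p = 0.228). The pachytene markers moved in the same direction as Dnaic1, and their part in its difference was not tested beyond that fit. Of the merged exons of Dnaic1, 15 nt overlap those of Enho on the other strand, and reads on exons of different genes were left out of the counts.

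Nme8 (ENSMUSG00000041138, chromosome 13 from 19645078 to 19697794, minus strand) had 102, 77.1, 18.9, 74.1 and 11.1 CPM in wild type mice 1 to 5 and between 69.8 and 126 CPM, with a median of 102 CPM, in Rfx2-/- mice. Wild type mice 3 and 5 were below all Rfx2-/- mice, and the other 3 overlapped with them. Its wild type values had a ratio of highest to lowest of 9.15, above the 8.04 of Dnaic2 and the 1.58 to 3.53 of the other 7 genes. Its log2 fold change was 0.81 (SE 0.49, 95% interval -0.27 to 1.89, adjusted p = 0.22). It was 0.24 without wild type mice 3 and 5, and -0.45 with the pachytene covariate (adjusted p = 0.517 and 0.189), so the sign changed with the pachytene covariate.

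Dnal1 (ENSMUSG00000042523, chromosome 12 from 84114366 to 84147498, plus strand), the leucine-rich repeat light chain of the outer arm, varied least. It had 54.5, 46.8, 45.8, 49.3 and 34.5 CPM in wild type mice 1 to 5 and between 51.2 and 54.0 CPM in Rfx2-/- mice. Only wild type mouse 1 was above any Rfx2-/- mouse. Its log2 fold change was 0.19 (SE 0.10, 95% interval -0.02 to 0.40, adjusted p = 0.146), and -0.03 with the pachytene covariate.

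Wdr63 and Wdr78 are the intermediate chains of the inner arm. Wdr63 (ENSMUSG00000043020, chromosome 3 from 146040526 to 146108130, minus strand) had 163, 136, 77.7, 144 and 58.4 CPM in wild type mice 1 to 5 and between 218 and 267 CPM, with a median of 264 CPM, in Rfx2-/- mice. The genotypes did not overlap, with means of 116 ± 45.1 CPM (SD, n = 5) and 251 ± 21.4 CPM (SD, n = 6). The log2 fold change was 1.12 (SE 0.24, 95% interval 0.60 to 1.64, adjusted p = 0.017). Unlike Dnaic1, Wdr63 passed 0.01 without wild type mice 3 and 5 (0.78, adjusted p = 0.000433) and with the pachytene covariate (0.46, adjusted p = 0.00179). Both fold changes were smaller than with all mice. Both fits were chosen after the data were seen, and the pachytene fit rests partly on extrapolation, so neither is independent support. Wdr63 was called higher at 0.01 in 7 of 21 alternative fits, leaving out wild type mouse 1 included (adjusted p = 0.00887), and it was above 0 in all of them.

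Wdr78 (ENSMUSG00000035126, chromosome 4 from 103038065 to 103114555, minus strand) had 133, 111, 47.3, 118 and 39.6 CPM in wild type mice 1 to 5 and between 52.5 and 76.8 CPM, with a median of 64.6 CPM, in Rfx2-/- mice. Wild type mice 1, 2 and 4 were above all Rfx2-/- mice, and wild type mice 3 and 5 were below all of them. The log2 fold change was -0.45 (SE 0.30, 95% interval -1.11 to 0.20, adjusted p = 0.252). Without wild type mice 3 and 5 it was -0.87 (adjusted p = 0.00162), and with the pachytene covariate -1.27 (adjusted p = 8.9e-06), where Wdr78 was called lower. Its exons overlap those of Mier1 on the other strand over 130 nt.

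Dnali1 (ENSMUSG00000042707, chromosome 4 from 125055338 to 125065703, minus strand), the inner arm light chain, had 174, 130, 57.8, 129 and 49.2 CPM in wild type mice 1 to 5 and between 34.9 and 66.9 CPM, with a median of 49.1 CPM, in Rfx2-/- mice. Wild type mice 1, 2 and 4 were above all Rfx2-/- mice, and wild type mice 3 and 5 lay among them. Its mean was 108 ± 53.0 CPM in wild type (SD, n = 5), and Rfx2-/- testes had 49.3 ± 11.3 CPM (SD, n = 6). The log2 fold change was -1.13 (SE 0.31, 95% interval -1.82 to -0.44, adjusted p = 0.0389). With single mice left out, the adjusted p of Dnali1 in edgeR ran from 0.0206 to 0.0757, so it did not stay under 0.05. Dnali1 was called lower at 0.01 in 5 of 21 alternative fits, among them the fit without wild type mice 3 and 5 (-1.54, adjusted p = 0.000771), the round spermatid covariate (-1.42, adjusted p = 0.000129) and the pachytene covariate (-1.95, adjusted p = 2.31e-05). Its exons overlap those of Gnl2 on the other strand over 43 nt.

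The small light chains Dnal4 and Dynlrb2 did not pass either limit with all mice. Dnal4 (ENSMUSG00000022420, chromosome 15 from 79761453 to 79777849, minus strand) had 131, 116, 56.9, 102 and 56.0 CPM in wild type mice 1 to 5 and between 70.9 and 94.5 CPM, with a median of 82.4 CPM, in Rfx2-/- mice. Dynlrb2 (ENSMUSG00000034467, chromosome 8 from 116504974 to 116515915, plus strand) had 65.3, 56.8, 23.9, 52.8 and 22.8 CPM in wild type mice 1 to 5 and between 30.1 and 44.1 CPM, with a median of 34.5 CPM, in Rfx2-/- mice. In both genes wild type mice 1, 2 and 4 were above all Rfx2-/- mice and wild type mice 3 and 5 below all of them. Dnal4 had a log2 fold change of -0.16 (SE 0.22, 95% interval -0.64 to 0.32, adjusted p = 0.573). For Dynlrb2 it was -0.33 (SE 0.27, 95% interval -0.92 to 0.27, adjusted p = 0.367). Without wild type mice 3 and 5, Dynlrb2 was called lower (-0.71, adjusted p = 0.00712) and Dnal4 was not (-0.49, adjusted p = 0.0188). With the pachytene covariate both were called lower, Dynlrb2 at -1.06 (adjusted p = 2.0e-04) and Dnal4 at -0.76 (adjusted p = 0.00108).

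**Figure D2:**
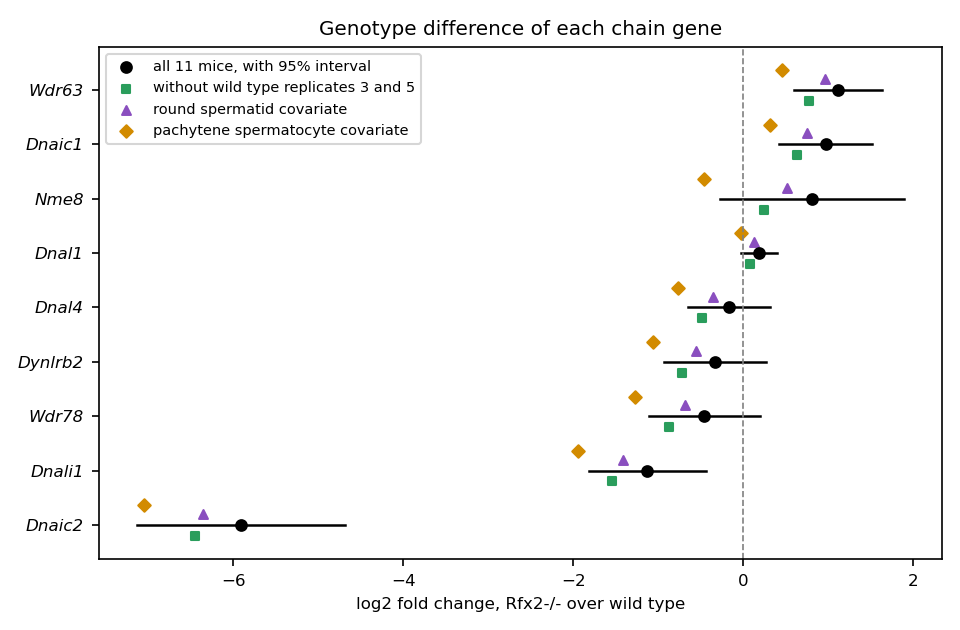
Log2 fold change of each chain gene, Rfx2-/- over wild type, with all 11 mice (black, bars are 95% intervals), without wild type mice 3 and 5 (green squares), and with round spermatid (purple triangles) or pachytene (orange diamonds) scores as a covariate. The order runs from Wdr63 at 1.12 to Dnaic2 at -5.91, and every pachytene value lies to the left of the value from all mice, which takes Nme8 and Dnal1 across 0.

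The number of genes called moved with these choices of mice and covariates. Without wild type mice 3 and 5, 4 of the 9 genes were called lower (Dnaic2, Wdr78, Dnali1 and Dynlrb2) and Wdr63 was called higher, where 2.72% and 1.06% of the tested genes were called. Mice 3 and 5 had the lowest wild type levels of all 9 genes and were left out after the data were seen. The lower calls added by leaving them out thus follow in part from that choice. Neither they nor the higher call of Wdr63 are independent support. With the pachytene covariate 5 were called lower (the same 4 and Dnal4) and Wdr63 higher, where 3.61% and 0.419% of tested genes were called. The round spermatid covariate gave 2 lower (Dnaic2 and Dnali1) and 2 higher (Dnaic1 and Wdr63), beside 4.47% and 2.17%. The sign of Dnaic1, Dnaic2, Wdr63, Wdr78, Dnali1, Dnal4 and Dynlrb2 held in all 21 alternative fits.

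**Figure D3:**
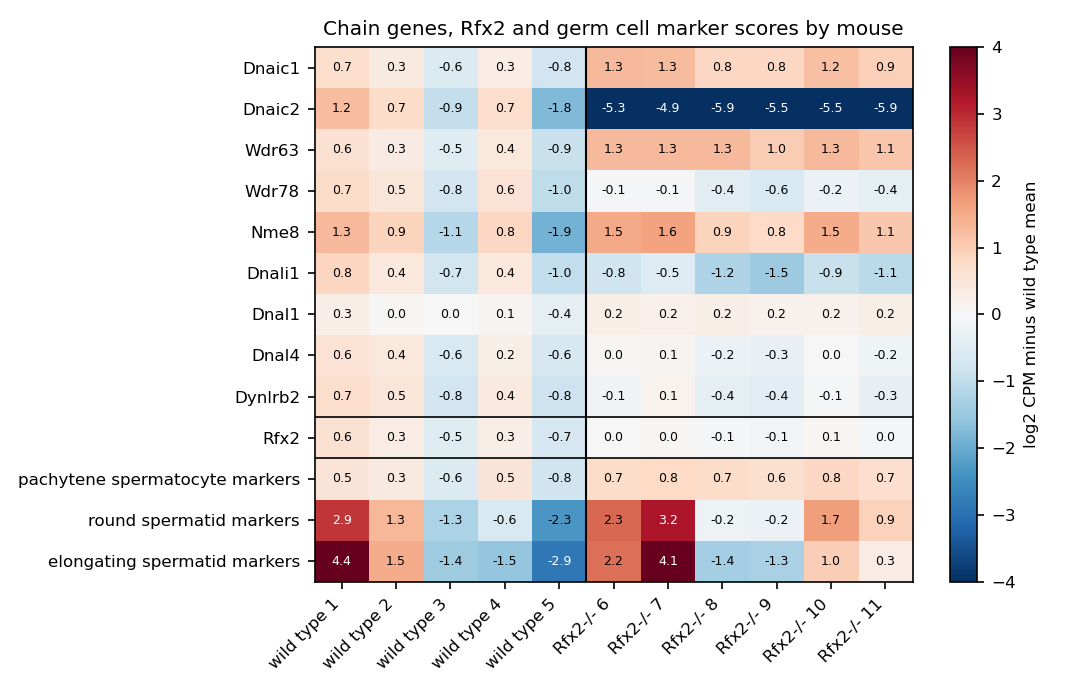
Log2 CPM of the chain genes and Rfx2, and germ cell marker scores, in each mouse minus the wild type mean of its own line, with colours from blue (lower) to red (higher) that saturate at a difference of 4. Wild type mice 3 and 5 are below the wild type mean for nearly all lines, and Dnaic2 is the one chain gene that is dark blue in all 6 Rfx2-/- mice.

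Wild type mice differed more among themselves than the Rfx2-/- mice did. The SD of log2 CPM had a median over the 9 genes of 0.73 in wild type and 0.22 in Rfx2-/- mice, beside 0.28 and 0.16 over all tested genes. In wild type it was largest for Nme8 at 1.42 and Dnaic2 at 1.28, and smallest for Dnal1 at 0.24, and the other 6 lay between 0.58 and 0.82. Within wild type, Wdr78 and Dnali1 were the pair of chain genes with the most alike profiles over the 5 mice, at a mean difference of 0.0732 in centred log2 CPM, and Nme8 and Dnal1 were the least alike, at 1.05.

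Levels can be compared between genes per length, as RPKM over the merged exons of protein coding transcripts. In wild type testes the order of mean RPKM was Dynlrb2 (79.7 ± 35.4, SD, n = 5), Dnali1 (50.6), Dnal4 (44.1), Dnaic1 (37.7), Wdr63 (36.5), Nme8 (26.7), Wdr78 (20.8), Dnaic2 (18.1) and Dnal1 (7.15). No neighbours in this order had ranges that were apart. In Rfx2-/- testes the order was Wdr63 (79.2 ± 6.73, SD, n = 6), Dnaic1 (74.1), Dynlrb2 (63.6), Nme8 (46.8), Dnal4 (39.4), Dnali1 (23.1), Wdr78 (15.1), Dnal1 (8.17) and Dnaic2 (0.299 ± 0.0941, SD, n = 6). There the ranges of neighbours were apart between Dnal4 and Dnali1, between Wdr78 and Dnal1, and between Dnal1 and Dnaic2. Wdr63 went from the fifth to the highest place and Dnaic2 to the lowest. With exons of all transcripts as the length, wild type means were 12.3 for Wdr78 and 12.6 for Dnaic2, so these neighbours changed places. So did Dnaic1 at 34.4 and Wdr63 at 35.0, which puts Wdr63 above Dnaic1 in wild type. Ranges of neighbours were compared only with the lengths of protein coding transcripts.

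Ratios within a pair of intermediate chains do not depend on library scaling. The RPKM ratio of Dnaic1 to Dnaic2 was 1.71, 1.93, 3.27, 1.86 and 4.95 in wild type mice 1 to 5, and from 186 to 325, with a median of 268, in Rfx2-/- mice. The ratio of Wdr63 to Wdr78 was 1.67, 1.67, 2.24, 1.66 and 2.01 in wild type mice 1 to 5, and from 4.72 to 6.11, with a median of 5.22, in Rfx2-/- mice. The ratios of the genotypes did not overlap in either pair. In wild type mice 3 and 5, which had the lowest pachytene and round spermatid scores of the wild type mice, both ratios were higher than in the other wild type mice, yet below every Rfx2-/- value. These pairs were set by the arm the proteins belong to, and the ratios are given as a description without a test.

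**Figure D4:**
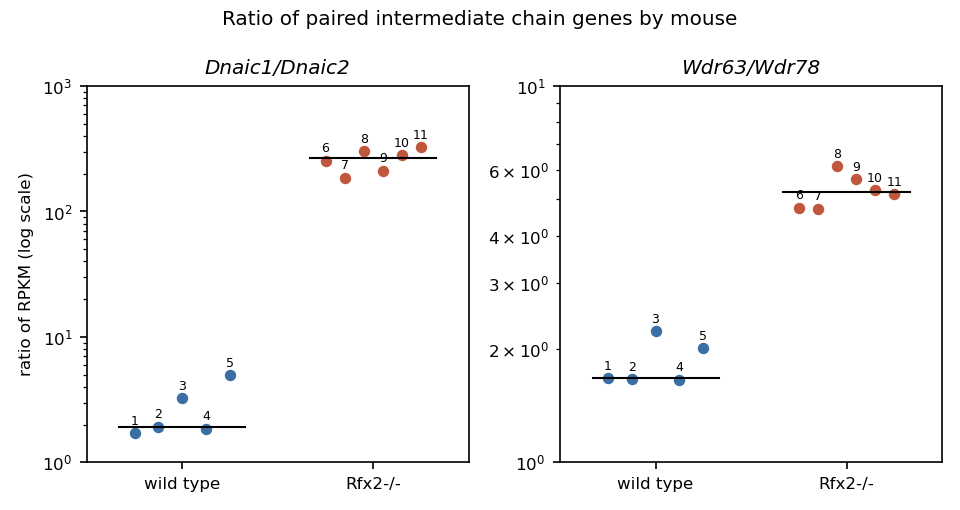
RPKM ratio (log axes with different ranges) of the outer arm pair Dnaic1 over Dnaic2 and of the inner arm pair Wdr63 over Wdr78 in each mouse, with the genotype median as a line and the mouse number above each point. Both ratios are higher in all Rfx2-/- mice than in any wild type mouse, with medians of 268 and 1.93 for the outer arm and of 5.22 and 1.67 for the inner arm.

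The chains work with heavy chains, docking and preassembly proteins, and have cytoplasmic relatives. Of 15 axonemal heavy chain genes, 14 were tested, with a median log2 fold change of 0.39. At an adjusted p of at most 0.01, 1 fell and 0 rose (1.94% and 0.73% of all tested genes, as for the lists that follow). In edgeR, 2 were lower and 1 higher at an unadjusted p under 0.05 (23.7% and 18.1% of all tested genes, here and for the lists that follow), and DESeq2 and voom called 0 higher. The one that fell was Dnah10, a heavy chain of dynein f and so a partner of WDR63 and WDR78. Wild type testes held 98.6 ± 48.6 CPM of it (SD, n = 5) and Rfx2-/- testes 12.3 ± 1.63 CPM (SD, n = 6), a log2 fold change of -3.00 (SE 0.30, adjusted p = 0.000203). The other heavy chain of dynein f, Dnah2, had a log2 fold change of 0.36 (adjusted p = 0.234), and the outer arm heavy chains of sperm, Dnah8 and Dnah17, had 0.46 and 0.52 (adjusted p = 0.128 and 0.133). These 3 genes were chosen after their values were seen, for their place in the same arms.

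Of 7 genes for docking of the outer arm, 6 were tested and 0 passed 0.01, with a median log2 fold change of 0.72. At 0.05 there were 1 lower and 2 higher (8.78% and 6.15% of all tested genes, as for the lists that follow). The 3 were named after their values were seen. The lower one was Armc4, an outer arm docking gene, with a log2 fold change of -3.99 (SE 0.82, adjusted p = 0.0147), 3 to 166 reads in the Rfx2-/- mice, and all of these below every wild type mouse. The higher ones were Ccdc151 at 1.18 and Ccdc103 at 0.87 (adjusted p = 0.0204 and 0.0493). In edgeR at an unadjusted p under 0.05 there were 1 lower and 3 higher, DESeq2 called 1 lower and 2 higher, and voom 1 and 1. For this list and those that follow, DESeq2 called 5.91% of all tested genes lower and 7.44% higher, and voom 4.33% and 2.33%. Of 15 preassembly genes, whose products build dynein arms in the cytoplasm, 1 fell and 0 rose at 0.01, with a median of -0.01. In edgeR, 3 were lower and 4 higher at an unadjusted p under 0.05, DESeq2 called 1 lower and 2 higher, and voom 3 and 2. The gene that passed in edgeR was Zmynd10, a preassembly factor with an MYND zinc finger, which had 344 ± 128 CPM (SD, n = 5) in wild type, against 126 ± 9.12 CPM in Rfx2-/- testes (SD, n = 6), and fell by 1.45 on the log2 scale (SE 0.22, adjusted p = 0.00263).

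Of 16 genes for intermediate and light chains of cytoplasmic dynein, 15 were tested and 0 were called in either direction at 0.01, with a median of 0.14. In edgeR at an adjusted p of at most 0.05 there were 0 lower and 2 higher, at an unadjusted p under 0.05 there were 3 and 5, and DESeq2 and voom called 0 lower and 2 and 1 higher. Beside Dynlrb2, its paralog Dynlrb1 had a log2 fold change of -0.40 (adjusted p = 0.0586). The LC8 genes Dynll1 and Dynll2, relatives of Dnal4, had 0.38 and -0.31 (adjusted p = 0.0248 and 0.0524). The intermediate chains of cytoplasmic dynein, Dync1i1 and Dync1i2, had log2 fold changes of -0.00 and 0.31 (adjusted p = 0.965 and 0.0671). The axonemal intermediate chains had -5.91 (Dnaic2), -0.45 (Wdr78), 0.98 (Dnaic1) and 1.12 (Wdr63). Of the 15 cytoplasmic genes tested, 3 were higher in all Rfx2-/- mice than in any wild type mouse, Dync1i2 and Dynll1 among them. The share over all tested genes was 6.5%.

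**Figure D5:**
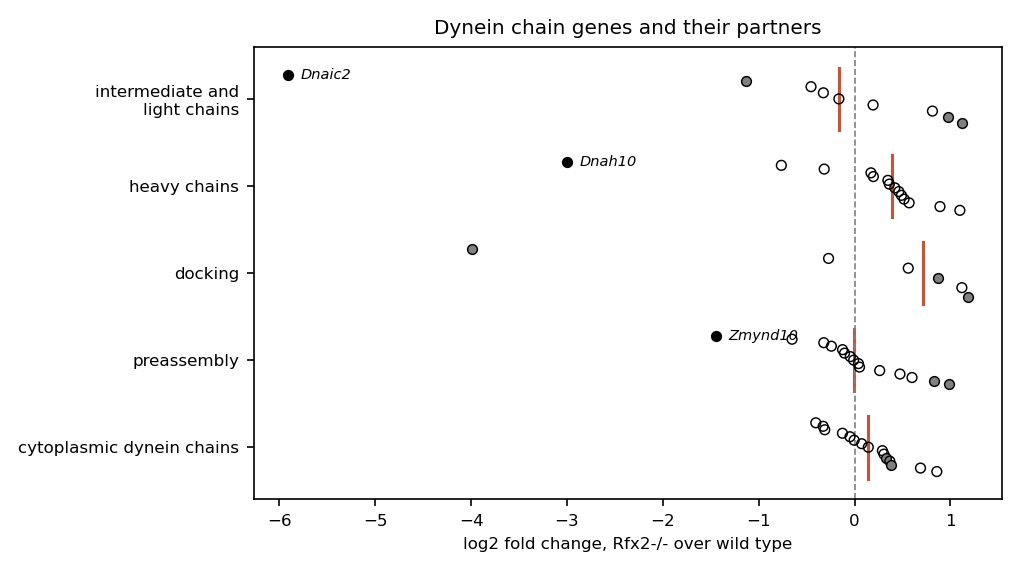
Log2 fold change, Rfx2-/- over wild type, of every tested gene in the chain list and its partner lists; filled black points passed an adjusted p of 0.01, grey points 0.05, open points neither, and the red line is the median of the list. Dnaic2, Dnah10 and Zmynd10 are the genes that passed 0.01, at -5.91, -3.00 and -1.45.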

How the data were processed

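Per the study's methods and the submitters' processing notes, the authors sequenced single reads from TruSeq libraries (CASAVA 1.8.2), aligned them to GRCm38 (STAR 2.4 is named in the notes, and the methods name more than 1 aligner and read length), discarded reads with several positions, and counted reads on merged exons of protein coding isoforms with featureCounts 1.4.6. The deposited table holds raw counts per gene and mouse, without normalization. Total counts were 22232097 to 29769483 per mouse. Strand was not stated as used, so reads of overlapping genes on the other strand could not be told apart, other than those left out on shared exons.

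Of 23074 Ensembl identifiers, 22293 had a GENCODE M21 name. Counts were fitted in R 4.3.3 with edgeR 4.0.16 (filterByExpr, TMM, glmQLFit, glmQLFTest, no covariates) over all genes, with Benjamini-Hochberg adjustment, and called at 0.01. Scores and profiles are log2 CPM with a prior count of 2. The code was tested on simulated data. Alternatives were DESeq2 1.42.0 (size factors and Wald test), limma 3.58.1 voom with quality weights, total counts, a robust prior, a minimum of 50 on the mean count, a minimum of 1 count in place of filterByExpr, other limits of p, each mouse left out, and round spermatid markers as a covariate. Leaving out wild type mice 3 and 5 together, the pachytene covariate and the 13- and 5-letter motifs were chosen after seeing the data. The chain genes and all lists were chosen with earlier results of these data known. Genes named are the 9 chains, Rfx2, the called genes of each partner list with the 3 lowest and 3 highest fold changes, the cytoplasmic paralogs, and the 3 genes most like each called chain, plus exceptions marked as chosen later. Labels give each mouse as a separate sample and do not say more on its origin. Mice of other ages and ChIP-Seq data were not analysed here. Tables and plots were made with Python 3.11.15, pandas 2.3.3, SciPy 1.17.1 and matplotlib 3.10.9.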

Additional observations from a re-analysis of the deposited data

How the results depend on the processing

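Of 207 values of the 9 chain genes under other settings, 179 kept their direction and side of the threshold, 26 kept direction and were called only there (20 at an adjusted p of at most 0.01 in other fits, 6 by another limit of p), 0 lost a call, and 2 reversed: with the pachytene covariate Nme8 had a log2 fold change of -0.45 and Dnal1 of -0.026. Only Dnaic2 was called at 0.01 with all mice, so only Dnaic2 could lose a call. The calls at 0.05 were less stable. With single mice left out, the adjusted p in edgeR reached 0.0757 for Dnali1 and 0.0698 for Dnaic1, but at most 0.0419 for Wdr63. Rfx2 ranged from -0.23 (without wild type mouse 5) to 0.071 (without wild type mouse 1) with single mice left out. Chain genes called lower numbered 2 with DESeq2's Wald test, voom, the round spermatid covariate, an unadjusted p of at most 0.01 and an adjusted p of at most 0.05, 4 without wild type mice 3 and 5, and 5 with the pachytene covariate. Those called higher numbered 2 under the same first 5 settings, and 1 with total counts, without both wild type mice and with the pachytene covariate. They ranged from 0 to 1 with single mice left out, the 1 being Wdr63 without wild type mouse 1.

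With all mice, 14 heavy chain, 6 docking, 15 preassembly and 15 cytoplasmic genes were tested. The shares of all tested genes called lower and higher were 5.91% and 7.44% with DESeq2, and 4.33% and 2.33% with voom. They were 4.47% and 2.17% with the round spermatid covariate, 3.61% and 0.419% with the pachytene covariate, and 2.72% and 1.06% without both mice. At an unadjusted 0.01 they were 10.2% and 7.49%, and at an adjusted 0.05 8.78% and 6.15%. Heavy chains called lower were 2 with voom, either covariate and without both mice. Docking genes called lower were 1 with DESeq2, voom, the round spermatid covariate, unadjusted p and 0.05, 2 with the pachytene covariate, and 0 to 1 with single mice left out (1 without Rfx2-/- mouse 7). Docking genes called higher were 2 with DESeq2, the round spermatid covariate, unadjusted p and 0.05, and 1 with voom and without both mice. Preassembly genes called lower were 3 with voom, 5 without both mice and 7 with the pachytene covariate, and higher 2 with DESeq2, voom, the round spermatid covariate, unadjusted p and 0.05, and 1 without both mice. Cytoplasmic chains called lower were 3 with the pachytene covariate and 1 without both mice or at an unadjusted p, and higher 2 with DESeq2, unadjusted p and 0.05, and 1 with voom. The cause was not tested. With exons of all transcripts, RPKM in Rfx2-/- testes moved by more than the SD between mice for Wdr78 (to 8.96), Dnal1 (to 7.61) and Dnal4 (to 34.4). In wild type the mean went from 20.8 to 12.3 for Wdr78 and from 18.1 to 12.6 for Dnaic2, by less than the SD between mice. No paired analysis was possible because the genotypes share no mouse numbers and the labels name no litters. The lowest count of any chain gene was 14, for Dnaic2 in an Rfx2-/- mouse, beside the floor of 3.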
